A study of Mus musculus with 6 samples.

Results

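The 10 genes described here are textbook targets of the transcription factor p53: Cdkn1a, Plk2, Mdm2, Ccng1, Zmat3, Bax, Bbc3, Trp53inp1, Phlda3 and Sesn1. They were chosen by symbol from the 24413 gene rows of the table, all 10 were present, and all 10 passed the filter on low values that left 12550 genes to test. p53, encoded by Trp53, binds DNA as a tetramer at paired half-sites and switches on genes that halt the cell cycle, promote cell death, repair DNA or retune metabolism. Cells hold it low because one of its own targets, the ubiquitin ligase Mdm2, marks it for destruction, and its activity is set mostly through the amount and modification of the protein rather than through its mRNA. Many of its targets are also read by other transcription factors, so their mRNA levels are not a measure of p53 alone.

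The cells were W-EGFP cells, interstitial cells from the testes of FLE-EGFP mice at stage E16.5. These mice carry EGFP, a fluorescent protein, under an enhancer of Nr5a1 that is active in fetal Leydig cells. By the labels, samples of 10000 cells were treated for 1 hour, either with 0.5 µM SAG, an agonist of the Hedgehog pathway protein Smoothened, or with DMSO (the vehicle) alone. There were 3 libraries in each group, and both groups came from the same mouse line, tissue and stage. Column names of both groups carry the element "siCnt", and the name given to the deposited values carries "siRNA". The labels explain neither, so whether both groups also received a control siRNA is not known here. The comparison asks which transcripts differ when Smoothened is activated in these cells.

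Sequencing depth was 18486396 to 25491259 reads in DMSO and 7694479 to 8804335 with SAG. Every SAG library was thus shallower than any DMSO library, and only SAG libraries held spike-in reads (54 to 1205). Effects of treatment and of library preparation or sequencing therefore cannot be told apart in the differences below. The Hedgehog target Gli1, which checks the treatment labels, had signals of 0.324 to 0.846 in the DMSO libraries and 30.8 to 46.3 in the SAG libraries. Nr5a1 ran from 98.8 to 124 over all 6 libraries and EGFP from 90.5 to 134. SAG replicate 3 stood apart from the other 5 libraries. The ribosomal RNA gene Rn45s took 1.67% of reads there and 0.326% to 0.360% elsewhere. Its summed signal of 5 adrenal cortex markers was 74.6, against 4.56 and 7.80 in the other SAG libraries and 1.86 to 2.43 in DMSO. Its sum of 6 fetal Leydig markers was 116, against 19.0 to 33.3 in the other 5. That sum of 116 came mainly from Star (50.7), Cyp11a1 (33.9) and Hsd3b1 (30.8). Insl3 was at 0.257 in that library, and Cyp17a1 had no reads there. The 7 interstitial progenitor markers summed to 436 to 455 in DMSO and to 912 to 1072 with SAG. Of these 7 genes, 6 rose and 1 fell. Sertoli markers summed to 279 to 289 in DMSO and 273 to 337 with SAG, and endothelial markers to 34.7 to 41.8 and 38.5 to 53.6. Most of the Sertoli sum was Gata4, at 213 to 279. Sox9, Wt1 and Aard were at 8.16 to 34.2, and Amh and Dmrt1 at most at 1.54 and 1.24. Most of the endothelial sum was Cdh5, at 25.1 to 43.8, and every other endothelial marker was at most at 3.93. Markers of germ cells, macrophages and erythroid cells summed to at most 3.62 in any library. The adrenal gene Cyp21a1 had no reads in DMSO, and Lhcgr (Leydig), Cldn5 (endothelial), Pou5f1, Dppa3, Mael and Nanos2 (germ cells) had none in any library. In bulk RNA, fewer cells of a type and less RNA per cell cannot be told apart, and the part of these markers in the results below was not tested, apart from leaving out SAG replicate 3.

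The p53 targets did not move as 1 group. With SAG, 5 of the 10 fell (Plk2, Ccng1, Mdm2, Zmat3 and Cdkn1a), 2 rose (Sesn1 and Bbc3), and 3 were not called (Bax, Trp53inp1 and Phlda3). A call is a Benjamini-Hochberg adjusted p under 0.05 from limma, a linear model fitted per gene to log2(signal + 1), with the adjustment over all tested genes. Over all 12550 tested genes 16.6% were called lower, 12.9% higher and 29.6% in either direction. Of all calls 43.8% were higher genes, and 66.3% after scaling by library totals alone, which moved the median over all genes from -0.03 to 0.10 on the log2 scale. The 7 calls described here were made under both scalings. The median log2 fold change of the 10 genes was -0.43, against that of -0.03 over all tested genes. For the 7 genes called, no SAG library overlapped a DMSO library, which also held for 48% of all tested genes (SAG below in 26.8% and above in 21.2%). The same 7 calls were made by edgeR's quasi-likelihood test and by DESeq2 on whole reads, which called 29.9% and 32.7% of all tested genes, and with each of the 6 libraries left out in turn (46.6% of all tested genes were called without SAG replicate 3).

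**Figure D1:**
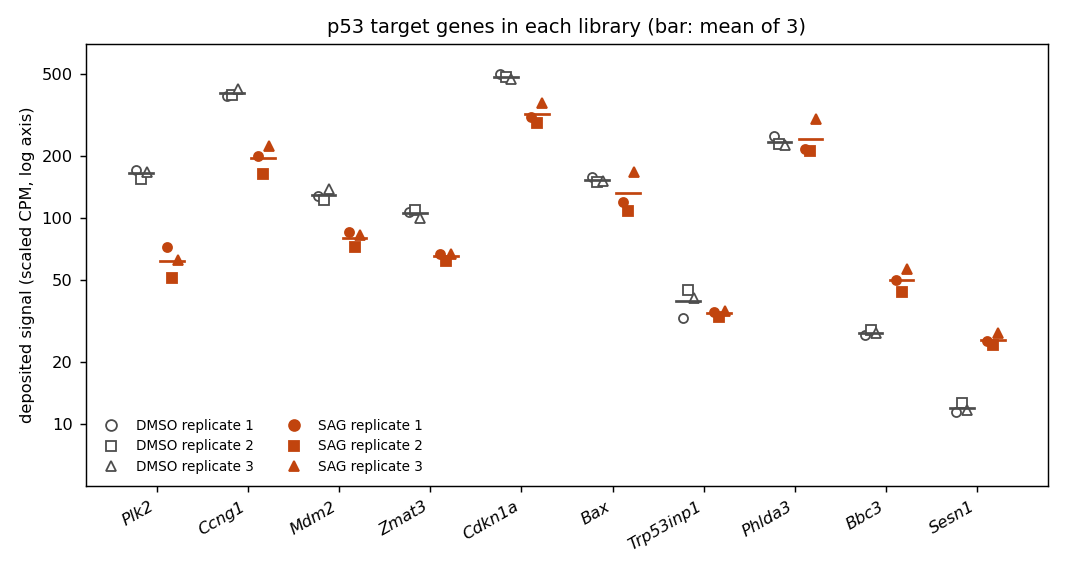
Deposited signal (vertical log axis, CPM with the authors' scaling factors) of the 10 p53 target genes in each of the 6 libraries, with open grey symbols for DMSO, filled orange symbols for SAG and a bar at the mean of 3. Plk2, Ccng1, Mdm2, Zmat3 and Cdkn1a lie lower in every SAG library than in any DMSO library, Bbc3 and Sesn1 lie higher, and SAG replicate 3 (orange triangle) stands above the other SAG libraries for Bax and Phlda3.

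Both genes of cell cycle arrest fell. Cdkn1a encodes p21, the inhibitor of cyclin-dependent kinases that carries much of the arrest caused by p53. Its signal was 498, 486 and 474 in DMSO replicates 1 to 3 and 311, 289 and 361 in SAG replicates 1 to 3. Every SAG library lay below every DMSO library, and the mean went from 486 ± 12.5 to 320.0 ± 37.0 (SD, n = 3), which is 1.52-fold lower. The log2 fold change was -0.61 (SE 0.10; limma with Benjamini-Hochberg adjusted p = 0.00291). On mouse build GRCm38, Cdkn1a spans chr17:29090976-29100727 (plus strand). An unclassified transcript on the opposite strand shares 273 bases of its exons, and since the strand setting of the counting is not given, reads there cannot be assigned with certainty.

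Plk2 encodes a polo-like kinase that p53 induces and that growth factors also induce within minutes to hours. It had the largest fall of the 10, with signals of 172, 155 and 167 in DMSO and 72.6, 51.4 and 62.4 with SAG. The groups were far apart, at 165 ± 8.62 and 62.1 ± 10.6, a 2.65-fold lower mean (log2 fold change -1.41, SE 0.13; limma, Benjamini-Hochberg adjusted p = 1.16e-04). Only 0.661% of tested genes had a log2 fold change as low. Plk2 spans chr13:110395046-110400844 (plus strand).

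The genes that feed back on p53 fell as well. Mdm2 had signals of 128, 122 and 138 in DMSO and 85.4, 72.4 and 82.5 with SAG. The highest SAG library was below the lowest DMSO library, and the mean was 1.62-fold lower, at 130 ± 7.93 and 80.1 ± 6.82 (log2 fold change -0.69, SE 0.11; limma, Benjamini-Hochberg adjusted p = 0.00157). Mdm2 spans chr10:117688875-117710758 (minus strand).

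Ccng1 encodes cyclin G1, which recruits the phosphatase PP2A to Mdm2 and so takes part in the same loop. It had signals of 390, 396 and 424 in DMSO and 201, 164 and 225 with SAG. The mean was 2.05-fold lower, at 403 ± 18.2 and 197 ± 30.7 (log2 fold change -1.04, SE 0.12; limma, Benjamini-Hochberg adjusted p = 3.92e-04). All 3 SAG libraries were low, replicate 2 the lowest. Ccng1 spans chr11:40748552-40755311 (minus strand).

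Zmat3, a zinc finger protein that binds RNA and acts on splicing and transcript stability downstream of p53, had signals of 108, 110 and 99.7 in DMSO and 67.2, 61.7 and 67.3 with SAG. Its SAG libraries were close together, and the mean was 1.61-fold lower, at 106 ± 5.21 and 65.4 ± 3.24 (log2 fold change -0.68, SE 0.10; limma, Benjamini-Hochberg adjusted p = 0.00116). It spans chr3:32334792-32366014 (minus strand). With a log2 fold change of -0.69, -0.68 and -0.61, Mdm2, Zmat3 and Cdkn1a fell by amounts that differ by less than the SE of each.

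Of the genes of cell death, Bbc3 rose, and Bax and Trp53inp1 were not called. Bbc3 encodes PUMA, a BH3-only protein that sets off the mitochondrial route of cell death. Its signal was 27.0, 28.8 and 27.8 in DMSO and 49.98, 43.6 and 56.5 with SAG. Every SAG library was higher than every DMSO library, and the mean was 1.80-fold higher, at 27.9 ± 0.920 and 50.05 ± 6.43 (log2 fold change 0.82, SE 0.12; limma, Benjamini-Hochberg adjusted p = 0.00151). The transcripts of Bbc3 had the highest GC content of the 10 genes, at 67.1%. When smooth trends on transcript length and GC content were removed from each library, its log2 fold change fell to 0.30 (SE 0.13) and the call was lost (limma, Benjamini-Hochberg adjusted p = 0.108, the highest of its 18 alternatives, of which the others ran down to 3.33e-08). Bbc3 spans chr7:16308393-16318205 (plus strand).

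Bax encodes the pore-forming protein that BH3-only proteins activate. It had signals of 158, 150 and 152 in DMSO and 120.0, 108 and 167 with SAG. SAG replicates 1 and 2 were below the DMSO libraries and SAG replicate 3 was above them, so the groups overlapped. The means were 154 ± 4.30 and 132 ± 31.4 (log2 fold change -0.24, SE 0.15, 95% interval -0.58 to 0.09; limma, Benjamini-Hochberg adjusted p = 0.249). Without SAG replicate 3 Bax was called lower, with a log2 fold change of -0.43 (limma, Benjamini-Hochberg adjusted p = 4.78e-05). It was also called lower with length and GC trends removed (-0.51, adjusted p = 0.0162). In its other 16 alternatives it was not called, with an adjusted p of up to 0.608. Bax spans chr7:45461697-45466898 (minus strand), and 192 bases of its exons, 12.2% of their length, are shared with a predicted gene on the same strand, Gm45808.

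Trp53inp1 encodes a stress protein that helps kinases modify p53 and takes part in autophagy. Its signals were 32.8, 44.8 and 41.1 in DMSO and 34.9, 33.3 and 35.3 with SAG. DMSO replicate 1 was below all SAG libraries, and DMSO replicates 2 and 3 were above them. The log2 fold change was -0.18 (SE 0.13, 95% interval -0.48 to 0.12; limma, Benjamini-Hochberg adjusted p = 0.334), and it was not called in its 18 alternatives, where the adjusted p ran from 0.166 to 0.950. Trp53inp1 spans chr4:11156431-11174379 (plus strand).

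Of the genes that restrain growth signalling, Phlda3 was not called and Sesn1 rose. Phlda3, a small pleckstrin-homology protein that competes with the kinase Akt for membrane lipids, had signals of 250, 228 and 227 in DMSO and 216, 212 and 301 with SAG. As for Bax, SAG replicate 3 was above all DMSO libraries while SAG replicates 1 and 2 were below them. The log2 fold change was 0.03 (SE 0.14, 95% interval -0.28 to 0.34; limma, Benjamini-Hochberg adjusted p = 0.886). It was -0.13 without SAG replicate 3, and -0.27 with length and GC trends removed, and neither was called (adjusted p = 0.122 and 0.0906). Phlda3 spans chr1:135766119-135769136 (plus strand).

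Sesn1 encodes sestrin 1, which holds back the growth kinase complex mTORC1 when amino acids are short. It had the lowest signal of the 10 in DMSO, at 11.5, 12.6 and 11.7, and reached 25.4, 24.2 and 27.6 with SAG. The lowest SAG library was well above the highest DMSO library. The mean was 2.15-fold higher, at 12.0 ± 0.586 and 25.7 ± 1.76 (log2 fold change 1.04, SE 0.13; limma, Benjamini-Hochberg adjusted p = 4.74e-04), on 208 to 278 reads per library in DMSO and 215 to 231 with SAG. Sesn1 spans chr10:41809935-41908424 (plus strand).

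**Figure D2:**
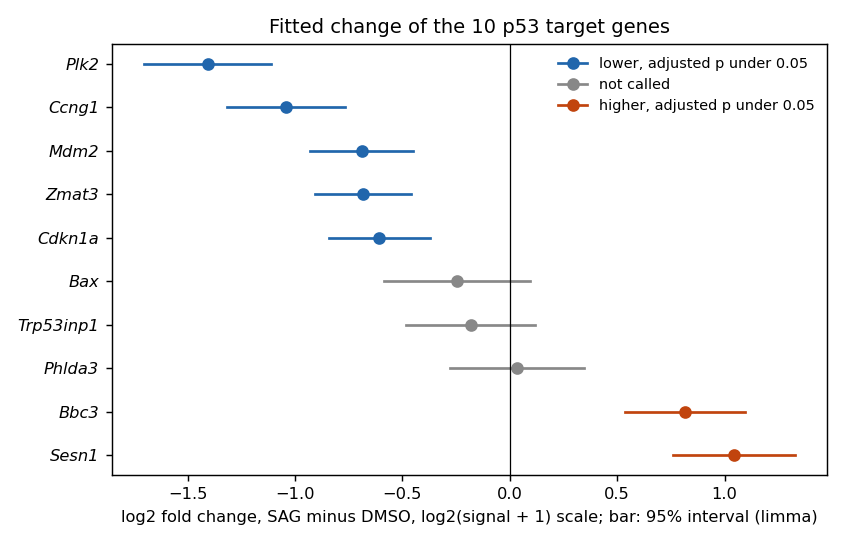
Fitted log2 fold change, SAG minus DMSO, of the 10 p53 target genes on the log2(signal + 1) scale, with 95% intervals from limma. The intervals of the 5 genes in blue lie below 0, from Plk2 at -1.41 to Cdkn1a at -0.61, those of Bbc3 and Sesn1 in orange lie above 0, and those of Bax, Trp53inp1 and Phlda3 in grey span 0.

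Among the SAG libraries the 10 genes shared an order that the rule did not use. All 10 had their lowest SAG signal in replicate 2, against 33.6% of all tested genes, and 8 had their highest in replicate 3, against 40.7%. The exceptions were Plk2 and Mdm2, highest in replicate 1. Replicates 1 and 3 were close for Zmat3 (67.2 and 67.3) and Trp53inp1 (34.9 and 35.3), and the order was not checked under another scaling. Replicates 1 and 2 were close for Sesn1 (25.4 and 24.2), Trp53inp1 (34.9 and 33.3) and Phlda3 (216 and 212). This order describes 3 libraries after the authors' scaling. SAG replicate 3 is the library with the raised adrenal markers and raised Star, Cyp11a1 and Hsd3b1. Without it the 5 lower genes had log2 fold changes of -1.42 (Plk2), -1.14 (Ccng1), -0.71 (Mdm2), -0.70 (Zmat3) and -0.70 (Cdkn1a), and the higher ones 0.73 (Bbc3) and 0.99 (Sesn1).

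Per kilobase of exon, the scale on which levels of different genes can be set side by side, the DMSO signal was highest for Phlda3 at 151, followed by Cdkn1a at 137, Ccng1 at 115 and Bax at 97.5. Plk2 at 36.7, Mdm2 at 25.5 and Bbc3 at 13.1 were intermediate, and Zmat3 at 9.24, Trp53inp1 at 6.11 and Sesn1 at 3.002 were lowest. With SAG the order changed on this scale. Bax at 83.6 was above Ccng1 at 56.1. Further down, Bbc3 was at 23.6, above Mdm2 at 15.7 and Plk2 at 13.8, and Sesn1 at 6.46 was above Zmat3 at 5.72 and Trp53inp1 at 5.33. Differences between neighbouring genes in this order were not tested.

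p53 binds 2 copies of a 10-base half-site, and the promoter windows of these genes were searched for such pairs to show what the letters near their starts are. RefSeq windows on GRCm38.p6, from 250 bases before to 50 after a gene start, were found for 8 of the 10 genes (Trp53inp1 and Zmat3 had none). The motif was the p53 half-site consensus, which is its own reverse complement and so covers both strands, in pairs with a spacer of 0 or 1 base and at most 2 mismatches over the 20 bases, with the C and G of each core kept. Pairs that overlap another pair were counted once per gene. Windows of 1 chromosome, which carries none of the 10 genes, were left out of the search. Such a pair was found for Cdkn1a, Ccng1 and Bax, which is 3 of 8, against 0.91% of the 9455 tested genes with a searched window. The 10 genes were picked as textbook p53 targets, so their higher share is not an independent result. The sequences are shown so that the paired sites of these 3 genes can be read beside their RNA values, written 5′ to 3′ on the strand of the gene, with the pair in capitals and 25 flanking bases on each side.
Cdkn1a: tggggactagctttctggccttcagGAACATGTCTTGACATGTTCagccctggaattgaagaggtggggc
Ccng1: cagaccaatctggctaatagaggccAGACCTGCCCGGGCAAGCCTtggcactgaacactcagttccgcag
Bax: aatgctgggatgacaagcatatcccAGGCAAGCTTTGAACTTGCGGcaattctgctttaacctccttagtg
The stretch of Cdkn1a is chr17:29090903-29090972 on the plus strand. Its pair, with 1 mismatch and no spacer, begins 51 bases before the upstream of 2 RefSeq starts and 2841 bases before the downstream one. The stretch of Ccng1 is chr11:40755437-40755506 on the minus strand, with a pair that has 1 mismatch and begins 195 bases before the start. The stretch of Bax is chr7:45467054-45467124 on the minus strand, with a pair that has 2 mismatches and a spacer of 1 base and begins 201 bases before the start. Of these 3 genes Cdkn1a and Ccng1 fell and Bax was not called. A match is a description of the letters, binding was not measured, and a gene without a match may hold one outside the window, as is known for the first intron of Mdm2.

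The regulators of p53 were called at shares below but near those of all genes. Of 20 listed genes 17 were tested, of which 1 rose and 2 fell (5.88% and 11.8%, against 12.9% and 16.6% of all tested genes), with a median log2 fold change of -0.09. The lower count was 3 without SAG replicate 3 and 1 without DMSO replicate 1 or 2 or SAG replicate 1 or 2, and the higher count was 2 without SAG replicate 1. Trp53 itself had signals of 83.9, 85.5 and 90.7 in DMSO and 96.7, 91.2 and 76.7 with SAG, and the groups overlapped (log2 fold change 0.02, SE 0.11; limma, Benjamini-Hochberg adjusted p = 0.921). Mdm4, the partner of Mdm2 that blocks p53, had signals of 34.7, 40.0 and 36.7 in DMSO and 41.1, 47.7 and 60.5 with SAG. It was not called (log2 fold change 0.40; limma, Benjamini-Hochberg adjusted p = 0.0716), but was called higher in 6 of 18 alternatives, among them edgeR (adjusted p = 0.0483), DESeq2 (0.0269) and scaling by library totals (0.0191). Ppm1d, a phosphatase and p53 target that switches p53 signalling off again, rose 1.81-fold, from 11.7 ± 1.85 to 21.1 ± 2.72 (log2 fold change 0.81; adjusted p = 0.00563). Its direction was opposite to that of Mdm2. Ppp1r13l, which encodes the p53 inhibitor iASPP, was 1.66-fold lower, at 49.1 ± 3.53 and 29.5 ± 4.92 (adjusted p = 0.00467). Cdkn2a, which encodes the Mdm2 inhibitor Arf besides p16, was at 5.95 ± 2.68 and 2.45 ± 0.549 and was called lower (adjusted p = 0.0270), but the call was lost without DMSO replicate 1 (0.109) or 2 (0.0549) and without SAG replicate 1 (0.0821) or 2 (0.0565). Usp7, which removes ubiquitin from Mdm2 and p53, was at 128 ± 5.03 and 108 ± 4.09 and was not called (adjusted p = 0.0711), but was called lower without SAG replicate 3 (0.00433).

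Among 45 further p53 targets more genes fell than rose. The limma test called 19 lower and 3 higher, which is 42.2% and 6.67% against 16.6% and 12.9% of all tested genes, and the median log2 fold change was -0.28. By role, 7 of 12 targets of cell death, 3 of 8 of cell cycle arrest and 2 of 6 of DNA repair and nucleotide supply fell. Of 9 targets in metabolism and antioxidant defence 3 fell and 1 rose, and of 10 secreted or other targets 4 fell and 2 rose. The lower count was 10, 12 and 11 without DMSO replicates 1, 2 and 3 and 22 without SAG replicate 3, and the higher count was 7 without SAG replicate 3 and 5 without SAG replicate 1. Over all tested genes the lower count, 2084 in the main result, was 1093, 1136 and 1086 without DMSO replicates 1, 2 and 3. It was 3373 without SAG replicate 3. The higher count over all tested genes, 1625 in the main result, was 2463 without SAG replicate 3 and 1522 without SAG replicate 1. Scaling each library by its total gave 14 lower and 9 higher, against 1259 lower and 2477 higher of all 12555 genes tested with that scaling.

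Sfn, which encodes the checkpoint protein 14-3-3 sigma, fell furthest of these targets. Its signals were 91.1, 76.3 and 80.6 in DMSO and 22.6, 21.4 and 27.4 with SAG, 3.47-fold lower on average (log2 fold change -1.76, SE 0.13; limma, Benjamini-Hochberg adjusted p = 3.40e-05). Thbs1, an abundant secreted matrix protein that TGF-beta and YAP also induce, was 2.25-fold lower, at 5557 ± 251 and 2465 ± 258 (adjusted p = 1.30e-04). Igfbp3, which binds insulin-like growth factors, rose 1.99-fold, from 97.8 ± 1.66 to 194 ± 21.9 (adjusted p = 2.77e-04). Gadd45a, a stress sensor that acts on the G2 checkpoint, had signals of 20.9 to 23.1 in DMSO and 20.5 to 25.7 with SAG and was not called (adjusted p = 0.610).

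The death-related targets included both a BH3-only gene and receptors. Pmaip1, which encodes the BH3-only protein NOXA, had signals of 16.2, 18.9 and 21.3 in DMSO and 8.90, 7.10 and 15.2 with SAG. It was called lower, opposite to Bbc3 (log2 fold change -0.85; limma, Benjamini-Hochberg adjusted p = 0.0254), but the call was lost without any 1 library except SAG replicate 3 (0.0538 to 0.106). Genes named from here to the end of this paragraph were chosen after their values were seen. The death receptor genes Fas and Tnfrsf10b were 2.34-fold and 1.91-fold lower, Fas at 13.0 ± 1.69 and 5.57 ± 2.28 and Tnfrsf10b at 53.4 ± 1.55 and 28.0 ± 3.98 (adjusted p = 0.00979 and 9.47e-04). Sesn2, the sestrin that the amino acid stress factor ATF4 also induces, rose 1.62-fold alongside Sesn1, from 40.4 ± 1.66 to 65.3 ± 5.69 (adjusted p = 0.00214). Rps27l, Ckap2 and Gtse1 were the further targets whose promoter windows held a p53 pair, out of 34 with a searched window. The Ckap2 pair reads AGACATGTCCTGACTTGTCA and the Rps27l pair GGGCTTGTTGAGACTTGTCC. Rps27l was 1.78-fold lower, at 161 ± 10.9 and 90.2 ± 16.1, with reads that may be shared with its near copy Rps27. Ckap2 was 1.63-fold lower, at 29.5 ± 2.19 and 18.2 ± 2.69 (adjusted p = 0.00657). Gtse1 was 1.38-fold lower (adjusted p = 0.0407), a call lost without DMSO replicate 1, 2 or 3 or SAG replicate 1 and in 5 other alternatives, edgeR (0.0514) and scaling by library totals (0.148) among them.

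**Figure D3:**
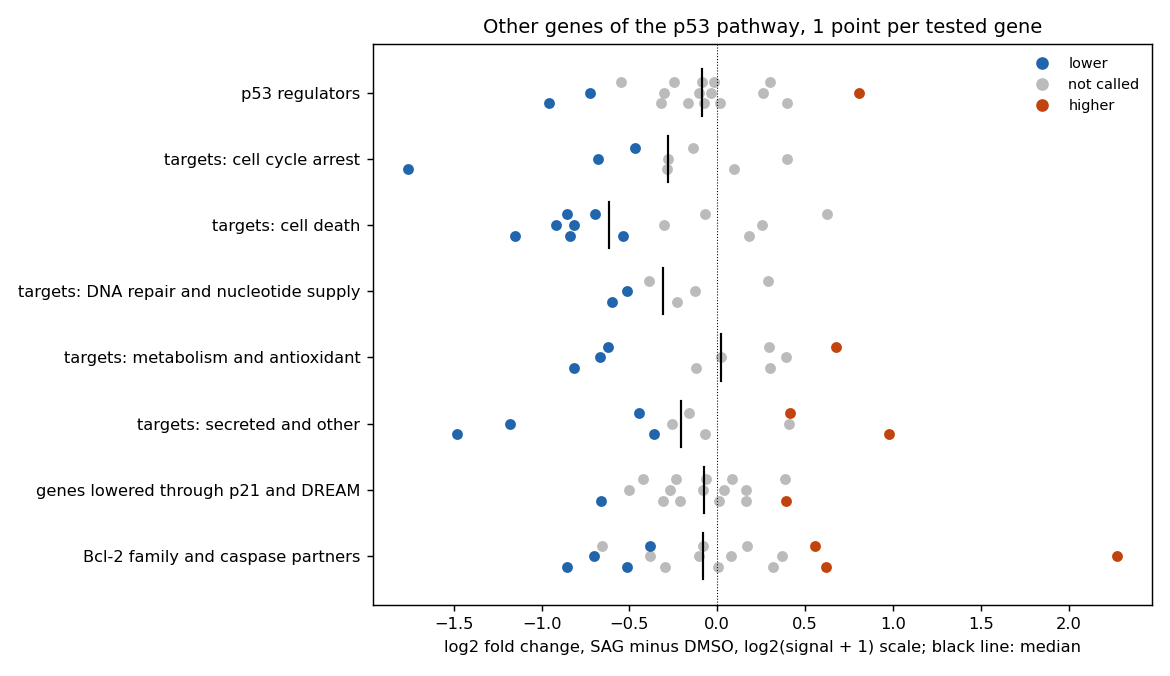
Log2 fold change, SAG minus DMSO, of each tested gene in the lists of p53 regulators, further p53 targets by role, genes lowered through p21 and DREAM, and Bcl-2 family and caspase partners, with called genes in blue (lower) or orange (higher), genes not called in grey, and a black line at each median. The targets of cell death have the lowest median, -0.62, and the single gene far to the right is Bmf at 2.28.

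Genes that p53 lowers indirectly, through p21 and the DREAM repressor complex, were read from a list of 16 cell cycle genes. Of these 1 rose and 1 fell (6.25% each, against 12.9% and 16.6% of all tested genes), with a median log2 fold change of -0.07. The lower count was 4 without SAG replicate 3 and 2 without SAG replicate 2. Over all tested genes it was 3373 of 12512 and 1905 of 12524 in these 2 settings, against 2084 in the main result. Bub1, a kinase of the spindle checkpoint, was 1.63-fold lower, at 20.9 ± 2.67 and 12.8 ± 0.561 (adjusted p = 0.00717). Mcm5, part of the replicative helicase, was at 43.5 ± 2.46 and 57.5 ± 3.99 (adjusted p = 0.0234), a call lost without DMSO replicate 1, 2 or 3 or SAG replicate 2 (0.0520 to 0.110). Top2a and Aurkb had log2 fold changes of -0.27 and 0.39 and were not called (adjusted p = 0.0512 and 0.0635). Among the alternatives, Top2a was called lower without SAG replicate 3 (0.00932), without a filter (0.0426) and with one at a mean signal of 5 (0.0476). Aurkb was called higher with scaling by library totals (0.0190), by edgeR (0.0484) and by DESeq2 (0.0358).

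Partners of Bax and Bbc3 in the Bcl-2 family and among the caspases were called at shares near those of all genes. Of 17 tested 3 rose and 4 fell (17.6% and 23.5%, against 12.9% and 16.6% of all tested genes), with a median of -0.08. The count of lower genes was 8 without SAG replicate 3 and 1 without any 1 of the DMSO libraries. Over all tested genes that count, 2084 in the main result, was 3373 of 12512 without SAG replicate 3. It was 1093, 1136 and 1086 without DMSO replicates 1, 2 and 3. The largest rise was that of Bmf, another BH3-only gene, with signals of 2.11, 2.77 and 1.75 in DMSO and 15.2, 17.1 and 11.6 with SAG, 6.60-fold on average (log2 fold change 2.28, SE 0.20; limma, Benjamini-Hochberg adjusted p = 8.97e-05). Bcl2l11, which encodes the BH3-only protein BIM and was chosen after its values were seen, was at 15.7 ± 2.54 and 23.5 ± 2.50 and was called higher (adjusted p = 0.0248), a call lost without DMSO replicate 1 or 3 or SAG replicate 1 or 2 (0.0645 to 0.114). Bcl2, the survival protein that BH3-only proteins block, was at 21.6 ± 1.87 and 11.9 ± 4.09 and was called lower (adjusted p = 0.0203), a call lost without DMSO replicate 1, 2 or 3 (0.0544 to 0.0807). Casp9, the initiator caspase of the mitochondrial route, rose 1.57-fold, from 15.5 ± 2.40 to 24.3 ± 2.69 (adjusted p = 0.0152, and 0.0751 without DMSO replicate 2). Cycs, which encodes cytochrome c and has many pseudogenes that may share its reads, was 1.64-fold lower, at 70.1 ± 1.78 and 42.8 ± 2.65 (adjusted p = 0.00123).

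**Figure D4:**
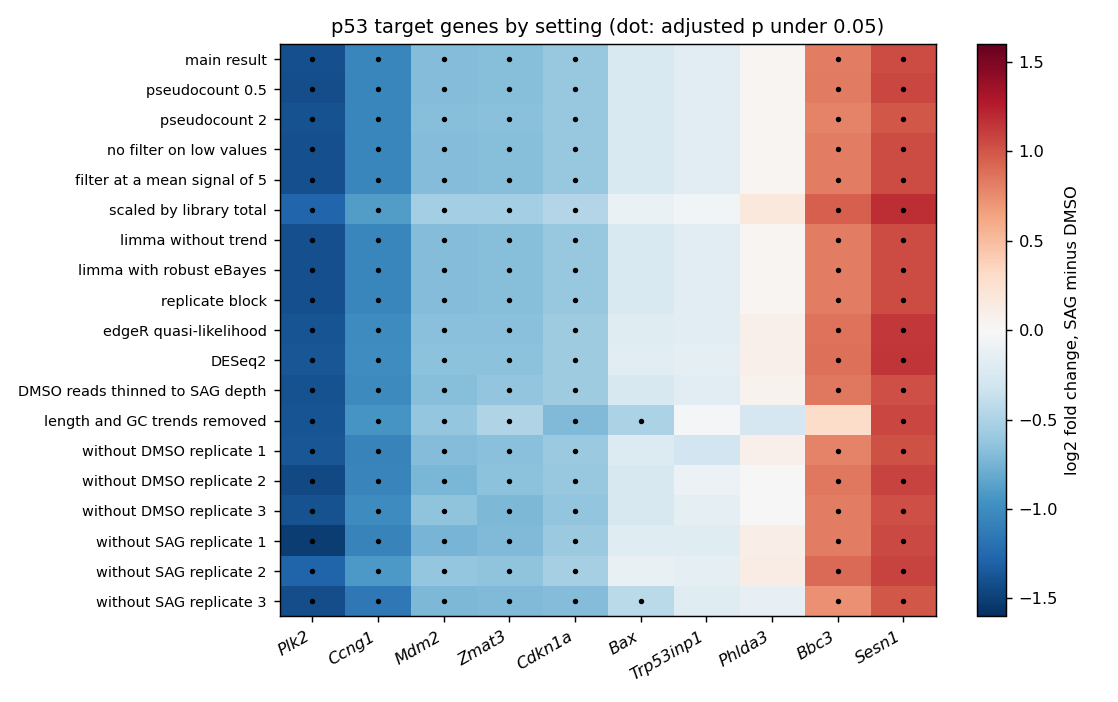
Log2 fold change of the 10 p53 target genes (columns) under the main result and 18 alternatives (rows), blue for lower and red for higher with SAG, with a dot where the adjusted p was under 0.05. Plk2, Ccng1, Mdm2, Zmat3, Cdkn1a and Sesn1 keep a dot in every row, Bbc3 loses it with length and GC trends removed, and Bax gains it there and without SAG replicate 3.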

How the data were processed

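The data were RNA-seq libraries, 3 DMSO and 3 SAG, prepared per the labels' protocols with RNeasy Micro columns and a strand-preserving NEBNext kit. The submitters' processing notes name mouse build GRCm38 and the tools edgeR (version listed as 2.2.1), featureCounts 2.0.0, STAR and Trim Galore 0.6.4. For annotation, strand setting and filters, the choice is not given in the sources used here. Values in the deposited table, which has 1 row per gene symbol, are named CPM by the authors. Its column sums differ (932712 to 1055620), so the deposited values are taken as a signal with scaling factors inside. All values (100%) were whole multiples of the value of 1 read in their column, to within 0.01, so whole reads could be recovered. Columns were matched to samples by treatment and replicate number, and 92 spike-in rows were left out.

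The log2(signal + 1) values were fitted with limma 3.58.1 (eBayes with trend, group as the only term) in R 4.3.3 on 12550 genes, those whose mean signal reached 1. The threshold was an adjusted p of 0.05 (Benjamini-Hochberg, over all of them), and every adjusted p in the text is from limma unless edgeR or DESeq2 is named. The log2(signal + 1) scale understates the change of low genes, and plain folds are ratios of mean signals. Alternatives were other pseudocounts, filters and scalings, limma without trend or with robust eBayes, a replicate block, edgeR 4.0.16 and DESeq2 1.42.0 on the recovered reads, thinned DMSO reads, length and GC trends removed, and each library left out. The fit was tested on simulated data. Whether replicates were separate cultures or animals is not stated, so the p-values reflect the spread of these libraries alone, possibly a technical one.

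The members and lists were chosen with earlier results of these data known. All members are described. Of each other list the 4 tested genes with the smallest p are named, with Trp53, Mdm4, Pmaip1 and Gadd45a, and others are said to be chosen later. A gene that this rule selects is not reported here. Coordinates are from GENCODE M21 and promoter sequences from RefSeq, both on GRCm38. The p53 site search was planned over wider regions, for which no genome was used here, and was run on the promoter windows instead.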

Additional observations from a re-analysis of the deposited data

Results flagged for a closer look

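Spike-in rows, which belong to no comparison, held 1370 reads in the SAG libraries together and 0 in DMSO. By library these were 111, 54 and 1205 reads in SAG replicates 1 to 3.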

How the results depend on the processing

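Of 665 values recomputed for 37 named genes under 18 alternatives, 609 kept their direction and side of the threshold, 33 lost a call, 16 gained one and 7 changed sign. The sign changes were of uncalled values: with length and GC trends removed, Phlda3 at -0.27, Gadd45a at -0.12 and Trp53 at -0.071, and with each library left out Phlda3 from -0.13 to 0.12 and Trp53 from -0.051 to 0.114. The 10 p53 targets had 2 higher and 5 lower in the other settings, except for 1 higher and 6 lower with length and GC trends removed and 6 lower without SAG replicate 3 (range 2 to 2 and 5 to 6 with each library left out). Deviations from the group mean were nearly uncorrelated between same-numbered libraries (-0.0231, 0.0332 and -1.73e-04). With 3 libraries in each group this cannot tell whether the samples were paired. The replicate block gave 1549 higher and 1976 lower over all genes and 5 higher among the further p53 targets (main 3), and changed no call of the 10 targets.

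Over all genes scaling by library total gave 2477 higher and 1259 lower (main 1625 and 2084), and leaving out a library gave 901 to 2463 higher and 1086 to 3373 lower. Higher and lower counts over all genes were 1867 and 1881 with edgeR and 2138 and 1965 with DESeq2. They were 1597 and 1841 with thinned DMSO reads and 1544 and 2052 with length and GC trends removed. Without a filter they were 1526 and 1866, and with one at a mean signal of 5 they were 1342 and 1962. Further p53 targets had 9 higher with scaling by total, 6 with edgeR, 7 with DESeq2, 5 with thinned DMSO reads and 5 with length and GC trends removed, and 2 to 7 higher and 10 to 22 lower with a library left out. They had 13 lower without a filter. Regulators (main 1 higher, 2 lower) had 3 higher with scaling by total, 2 with edgeR, DESeq2, thinned reads or length and GC trends removed, 1 lower without a filter or with one at a mean signal of 5, and 1 to 2 higher and 1 to 3 lower with a library left out. Genes lowered through p21 (main 1 and 1) had 2 higher with scaling by total, edgeR, DESeq2 or thinned reads, 2 lower without a filter, with one at 5 or with length and GC trends removed, and 0 to 1 higher and 1 to 4 lower with a library left out. Bcl-2 family and caspase partners (main 3 and 4) had 2 lower with scaling by total, and 2 to 4 higher and 1 to 8 lower with a library left out. The cause of these moves was not tested. Among the 10 p53 targets Sesn1 had the fewest SAG reads, at 215 to 231 per library.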
